A study of Mus musculus with 25 samples.

Results

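Acta2, Tagln, Myh11, Cnn1, Smtn, Myocd, Pdgfrb, Rgs5, Cspg4 and Notch3 are genes of vascular smooth muscle cells and of pericytes, the mural cells that wrap arteries, veins and capillaries. They were chosen by their mouse symbols, and all 10 were found among the 56941 genes of the counts table. All 10 also passed the filter on low counts that left 17682 genes for testing. The study sequenced RNA of 25 mouse hearts after depletion of ribosomal RNA, to follow lactate metabolism in hypertrophy of the heart. MCT1, the product of Slc16a1, is a transporter of lactate and pyruvate, and Ang/PE stands for the neurohormonal agonists given to make the heart muscle grow. Each heart was labelled WT or MCT1KO for genotype and NO PUMP, SALINE or ANG/PE for treatment. Without a pump there were 4 WT hearts and 3 labelled MCT1KO. With saline there were 6 WT hearts and 4 labelled MCT1KO, and with Ang/PE 3 WT hearts and 5 labelled MCT1KO. Strain, age, sex, infusion time, the allele or promoter behind the MCT1KO label and the part of the heart sampled are not given in the sources used here. The labels number the hearts within a group, and p-values measure the spread between these hearts.

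Smooth muscle cells contract through a smooth muscle myosin that pulls on alpha actin, and calponin, transgelin and smoothelin bind the same actin filaments. Myocardin, encoded by Myocd, is a coactivator of serum response factor and switches on this contractile programme through DNA elements called CArG boxes; it is also active in heart muscle cells. Pericytes and smooth muscle cells are recruited to vessels by PDGF-B acting on the receptor encoded by Pdgfrb, and the receptor encoded by Notch3 keeps arterial smooth muscle mature. In RNA from whole hearts, fewer cells of a type and less RNA per cell cannot be told apart.

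The promoters of the members are shown because the contractile genes are known targets of serum response factor. RefSeq promoter sequences of assembly GRCm38.p6 were matched for 6 of the 10 members (Acta2, Cnn1, Smtn, Rgs5, Cspg4 and Notch3). The strict CArG box was found in 0 of these 6 over the 250 bases before the start site, and in 1.47% of all 32851 promoters. A looser form was then searched, chosen after the strict form had given none. It is CCNNNNNNGG with at least 5 of its inner bases A or T, covers both strands because it is its own reverse complement, and stood in 8.59% of all promoters. Among the 6 members it was found in Acta2 alone, in 2 copies that begin 84 and 34 bases before the start site. The Acta2 stretch lies at chr19:34255378-34255477 on the minus strand, with both copies in capitals. The Cnn1 stretch, at chr9:22099153-22099252 on the plus strand, holds no copy and has no capitals. Both are written 5′ to 3′.
Acta2: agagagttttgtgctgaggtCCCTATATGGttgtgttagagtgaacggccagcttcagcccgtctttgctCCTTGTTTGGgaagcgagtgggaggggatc
Cnn1: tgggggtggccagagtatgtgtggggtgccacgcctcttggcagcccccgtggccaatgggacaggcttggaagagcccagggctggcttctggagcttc
The matches describe letters in these windows and say nothing of binding.

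The total count per library, in units of 10⁶, ran from 12.2 to 24.9, with the lowest totals in hearts labelled MCT1KO given Ang/PE and the highest in WT hearts without a pump. Summed markers of ventricular heart muscle were high in every heart, from 28243 to 52312 CPM (counts scaled by TMM library sizes in units of 10⁶). Slc16a1 itself was not lost in the libraries labelled MCT1KO, with group means of 158 to 199.8 CPM against 199 to 214 CPM in WT, so directions between genotypes rest on the labels. Most saline hearts stood apart in markers of other cell types. Summed CPM of the atrial markers Myl7, Myl4 and Sln ran from 1.51 to 2.50 without a pump and from 1.72 to 5.73 with Ang/PE, but from 2.03 to 1136 in WT saline hearts and from 1.5 to 3679 in saline hearts labelled MCT1KO. Summed adipocyte markers stayed at or below 0.572 CPM outside the saline groups, and reached 29.0 CPM in WT and 1069 CPM in MCT1KO saline hearts. MCT1KO SALINE replicate 4 held the top value of both sums and the lowest ventricular sum, 28243 CPM.

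Per kilobase of exon length, Rgs5 was the most abundant member, with 134 ± 27.5 CPM per kb (SD, n = 25 hearts). Acta2 followed at 55.0 ± 30.7 CPM per kb and Smtn at 42.0 ± 4.82 CPM per kb. Myocd was at 23.9 ± 4.94 CPM per kb, Pdgfrb at 20.6 ± 1.99 CPM per kb and Notch3 at 12.1 ± 1.87 CPM per kb. In this order Acta2 and Smtn overlapped within 1 SD, and so did Myocd and Pdgfrb, and Notch3 and Tagln. Tagln was at 11.6 ± 11.2 CPM per kb, Myh11 at 6.10 ± 7.55 CPM per kb, Cspg4 at 5.25 ± 1.21 CPM per kb and Cnn1 at 0.903 ± 1.61 CPM per kb. Tagln, Myh11 and Cspg4 also overlapped within 1 SD, while Rgs5, Smtn against Myocd, Pdgfrb against Notch3, and Cspg4 against Cnn1 were apart by more. The coefficient of variation of CPM over the 25 hearts was 9.65% for Pdgfrb, 11.5% for Smtn and 15.4% for Notch3. It was 20.5% for Rgs5, 20.7% for Myocd, 23% for Cspg4 and 55.8% for Acta2. Tagln, Myh11 and Cnn1 had 96.5%, 124% and 178%, and MCT1KO SALINE replicate 4 was the highest heart for all 3.

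Myh11 encodes smooth muscle myosin heavy chain, the most specific protein of the contractile programme. Its level in the hearts without a pump was 19.5, 22.3, 25.6 and 18.2 CPM in WT and 24.9, 42.9 and 75.6 CPM in hearts labelled MCT1KO. With saline the WT hearts had a lowest value of 29.1, a median of 38.8 and a highest of 57.2 CPM, all above the WT hearts without a pump. The saline hearts labelled MCT1KO had 46.1, 24.2, 24.4 and 314 CPM, so that 3 of 4 lay inside or below the range of WT saline and replicate 4 far above it. With Ang/PE the levels were 25.7, 33.5 and 29.3 CPM in WT and 31.0, 32.7, 30, 46.2 and 40.7 CPM in hearts labelled MCT1KO.

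Tagln encodes transgelin (SM22 alpha), an actin-binding protein of smooth muscle. It showed the same high heart: the saline hearts labelled MCT1KO had 29.4, 11.8, 14.9 and 122 CPM. WT saline hearts ran from 12.1 through a median of 18.9 to 30.8 CPM. Without a pump Tagln was 12, 12.3, 16.2 and 12.5 CPM in WT and 15.2, 19 and 29.5 CPM in hearts labelled MCT1KO. With Ang/PE it was 11.4, 13.8 and 18.8 CPM in WT and 18.4, 46.7, 12.7, 22.4 and 18.1 CPM in hearts labelled MCT1KO. Apart from MCT1KO SALINE replicate 4 and MCT1KO ANG/PE replicate 2, all Tagln levels were at or below 30.8 CPM. Tagln overlaps Pcsk7 on the opposite strand, which held 11237 counts over all hearts against 9829 for Tagln, and without a stated strand setting of the counting reads of these genes cannot be told apart. It also overlaps Gm48529 (857 counts). The same limit holds for Notch3 with Gm17276 (4074 counts against 41980) and for Smtn with Gm11946 (211 counts against 78754).

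Cnn1 encodes calponin 1, which restrains the myosin ATPase of smooth muscle, and was the least abundant member, with 8 to 392 counts in a heart. The saline hearts labelled MCT1KO had 3.38, 0.982, 0.750 and 23.1 CPM, and WT saline hearts had a lowest value of 0.814, a median of 1.94 and a highest of 3.55 CPM. Without a pump Cnn1 was 0.857, 0.731, 1.2 and 0.858 CPM in WT and 0.834, 1.29 and 2.64 CPM in hearts labelled MCT1KO. With Ang/PE it was 0.477, 1.26 and 1.64 CPM in WT and 2.01, 2.79, 0.717, 2.32 and 2.16 CPM in hearts labelled MCT1KO. MCT1KO SALINE replicate 4 was again the high heart, and all groups overlapped.

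Acta2 encodes the alpha actin of smooth muscle, which activated fibroblasts also make. WT hearts without a pump fell into high and low values of 127, 133, 64.6 and 62.8 CPM, and those labelled MCT1KO had 71.4, 59.1 and 84.6 CPM. With saline, WT hearts ran from 67.3 through a median of 103.9 to 150.3 CPM, and hearts labelled MCT1KO had 195, 152, 93.5 and 307 CPM. With Ang/PE, WT hearts had 72.5, 98.7 and 55.9 CPM, and hearts labelled MCT1KO had 150.4, 297, 67.3, 181 and 123 CPM. Unlike Myh11, Acta2 was high in several pumped hearts labelled MCT1KO: 7 of these 9 lay above all 3 WT Ang/PE hearts and above 4 of the 6 WT saline hearts.

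**Figure D1:**
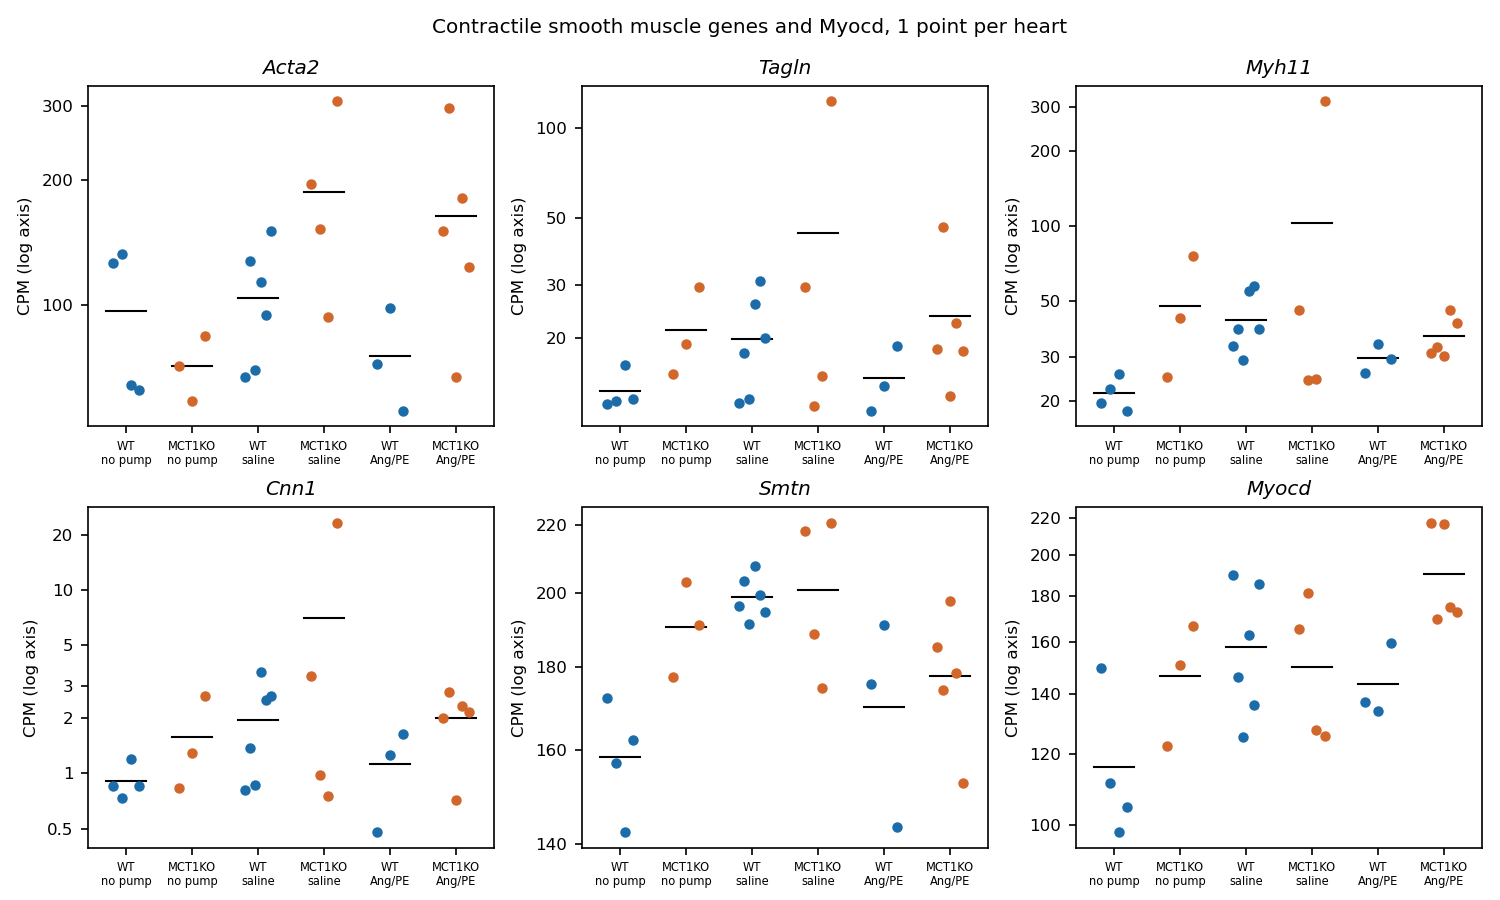
CPM (log axis) of 5 contractile genes and Myocd, with 1 point per heart and a line at each group mean, WT in blue and MCT1KO in orange. MCT1KO SALINE replicate 4 is the top point for Acta2 (307), Tagln (122), Myh11 (314), Cnn1 (23.1) and Smtn (221), but not for Myocd, which is highest in Ang/PE hearts labelled MCT1KO.

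Smtn encodes smoothelin, an actin-bound protein of contractile smooth muscle, and varied little. It was 172, 157, 142 and 162 CPM in WT hearts without a pump and 177, 203 and 191 CPM in those labelled MCT1KO. WT saline hearts lay close together, from 191 through a median of 198 to 208 CPM, above every WT heart without a pump. Saline hearts labelled MCT1KO had 218, 189, 175 and 221 CPM. With Ang/PE the values were 176, 191 and 143 CPM in WT and 185, 174, 198, 179 and 153 CPM in hearts labelled MCT1KO.

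Myocd, the regulator, did not share the high heart of the genes it is known to activate. WT hearts without a pump had 149.6, 111, 98.1 and 105 CPM, and those labelled MCT1KO had 122, 151 and 167 CPM. With saline, WT hearts ran from 125 through a median of 155 to 190.1 CPM and hearts labelled MCT1KO had 165, 182, 128 and 126 CPM, the last being replicate 4. The highest group was Ang/PE labelled MCT1KO, with 217, 169.8, 216, 175 and 173 CPM, all above the WT Ang/PE hearts at 137, 134 and 159.6 CPM.

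Pdgfrb encodes the beta receptor for platelet-derived growth factor, carried by pericytes, smooth muscle cells and some fibroblasts. WT hearts without a pump were nearly equal at 98.3, 101, 102 and 103 CPM, below the 111, 120.1 and 132 CPM of those labelled MCT1KO. WT saline hearts ran from 104 through a median of 122 to 140.2 CPM, and saline hearts labelled MCT1KO had 118, 101, 109 and 104 CPM. With Ang/PE the levels were 114, 100.1 and 105 CPM in WT and 109.7, 116, 118, 119 and 107 CPM in hearts labelled MCT1KO.

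Notch3 encodes the Notch receptor of vascular smooth muscle and pericytes. As for Pdgfrb, the WT hearts without a pump had the lowest group mean. They were at 80.1, 91.6, 77.4 and 79.7 CPM, and those labelled MCT1KO were at 101, 109 and 113 CPM. WT saline hearts ran from 101 through a median of 108 to 134 CPM, and saline hearts labelled MCT1KO had 105, 92.9, 87.8 and 75.5 CPM. With Ang/PE Notch3 was 101, 99.3 and 85.0 CPM in WT and 94.2, 82.5, 118, 114 and 77.3 CPM in hearts labelled MCT1KO. The 2 genotypes lay apart without a pump and overlapped with saline and with Ang/PE.

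Cspg4 encodes the NG2 proteoglycan of pericytes and of smooth muscle progenitors. WT hearts without a pump were the lowest of the series, at 44.4, 44.9, 38.1 and 41.2 CPM, and those labelled MCT1KO had 48.9, 61.4 and 67.8 CPM. WT saline hearts ran from 56.9 through a median of 64.7 to 68.5 CPM, and saline hearts labelled MCT1KO had 78.2, 72.5, 50.4 and 102 CPM. With Ang/PE the levels were 60.8, 53.0 and 61.7 CPM in WT and 64.7, 86.2, 60.3, 75.4 and 73.3 CPM in hearts labelled MCT1KO. Every one of the other 21 hearts lay above the 4 WT hearts without a pump.

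Rgs5 encodes a regulator of G protein signalling that is a standard pericyte marker, and its highest group mean was that of WT hearts without a pump. WT hearts without a pump had 656, 771, 799 and 747 CPM, and those labelled MCT1KO had 797, 585 and 573 CPM. WT saline hearts were lower, from 488 through a median of 562 to 604 CPM, and saline hearts labelled MCT1KO had 482, 436, 755 and 335 CPM. With Ang/PE Rgs5 was 623, 651 and 812 CPM in WT and 661, 472, 558, 683 and 487 CPM in hearts labelled MCT1KO. MCT1KO SALINE replicate 4, the top heart for the contractile genes, was the lowest of the 25 for Rgs5.

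**Figure D2:**
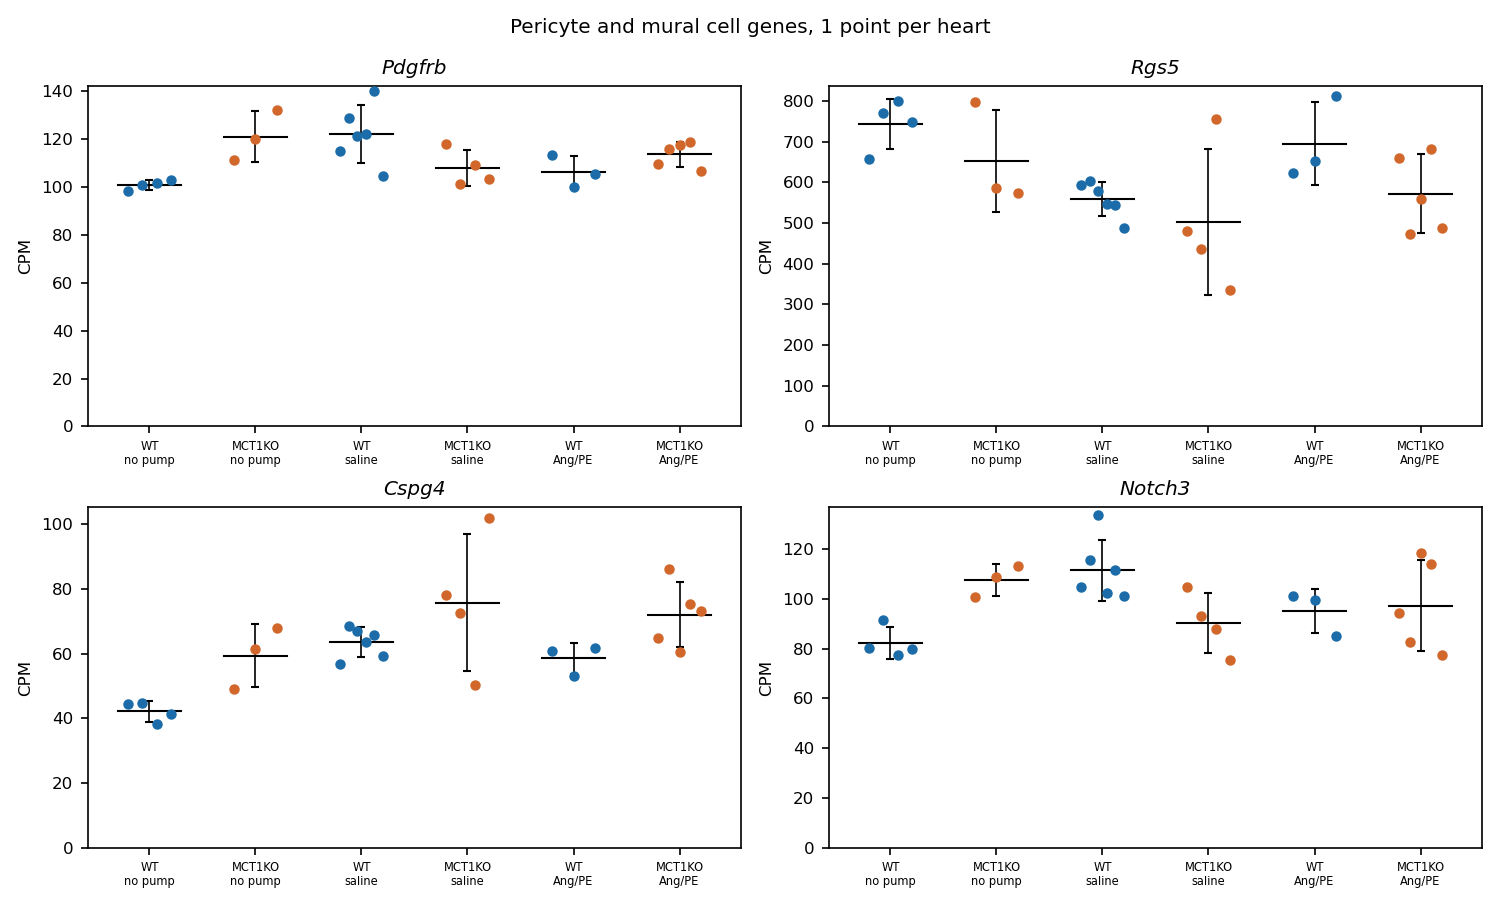
CPM (axis from 0) of Pdgfrb, Rgs5, Cspg4 and Notch3, with 1 point per heart and mean ± SD per group, WT in blue and MCT1KO in orange. WT hearts without a pump are the lowest group for Pdgfrb (101 ± 2.06), Cspg4 (42.2 ± 3.15) and Notch3 (82.2 ± 6.37) and the highest for Rgs5 (744 ± 61.9).

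Saline against no pump asks what the implanted pump goes with, and in WT hearts 4 members rose. Cspg4 rose by 0.59 on the log2 scale (SE 0.13, edgeR adjusted p = 0.0158) and Notch3 by 0.44 (SE 0.11, edgeR adjusted p = 0.0255). Smtn rose by 0.33 (SE 0.09) and Pdgfrb by 0.27 (SE 0.07), with 0.0320 as the edgeR adjusted p of each. In all 4 the lowest of 6 WT saline hearts lay above the highest of 4 WT hearts without a pump. These were 4 of 10 members higher and 0 lower, where 6.61% of all tested genes were called in either direction and 2.39% were called higher. The groups also did not overlap for Myh11 (log2 fold change 0.97, SE 0.55, edgeR adjusted p = 0.288) and Rgs5 (−0.41, SE 0.16, edgeR adjusted p = 0.118), which makes 6 of 10 members without overlap against 10.3% of all genes. Myocd was at 0.44 (SE 0.14, edgeR adjusted p = 0.0579), and DESeq2 called it too, with an adjusted p of 0.0278. Acta2, Tagln and Cnn1 had values of 0.10, 0.58 and 1.10 with edgeR adjusted p of 0.897, 0.533 and 0.402. The median over the 10 members was 0.44, beside 0.0020 over all genes.

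Several measures moved with this comparison. All 3 atrial markers were called higher in WT saline hearts, Sln having had 0 counts in every WT heart without a pump. With atrial and adipocyte marker scores as covariates 0 members were called, the lowest adjusted p being 0.660. In that fit 0 of all genes were called, against 1168 in the main fit. At an unadjusted p below 0.05 there were 5 members, against 6 in the main fit. Cspg4 then fell from 0.59 to 0.38 and Notch3 from 0.44 to 0.31, Smtn and Pdgfrb were at 0.31 and 0.28, and Rgs5 was at −0.15. The share of counts from mitochondrial genes was 8.94% to 14.77% in WT saline hearts and 14.78% to 18.35% in WT hearts without a pump, with no overlap, and its part in the result was not tested. Of 5 leukocyte markers 2 were called lower, with sums of 129 to 197 CPM against 153 to 365 CPM, and their part in the result was not tested. Of 5 ventricular markers 1 (Ryr2) was called higher and 3 had an unadjusted p below 0.05. The ventricular sums were 43758 to 52312 CPM against 31746 to 45550 CPM, and their part was not tested either. Fold changes rose with transcript GC content, with a rank correlation of 0.41 over 12724 genes as a description. The GC content of Smtn, Notch3, Cspg4 and Pdgfrb was 60.1%, 59.6%, 59.2% and 54.9%, above the median of 49.3% over those genes, and that of Rgs5 was 41.1%. With offsets for GC and length 0 members were called, where 106 of all genes were, against 1168 in the main fit. The values shrank to 0.14 for Smtn, 0.09 for Pdgfrb, 0.29 for Cspg4 and 0.13 for Notch3. Rgs5 was at −0.24, and the adjusted p of these members ran from 0.154 to 0.603. The count of called members was 0 without WT NO PUMP replicate 3 or 4, and 2 without WT NO PUMP replicate 2 or without WT SALINE replicate 2, 3, 4 or 5. Xist was present in 2 of 4 WT hearts without a pump and in 1 of 6 with saline. With Xist as a covariate 2 members (Cspg4 and Notch3) were called, where 549 of all genes were.

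Saline against no pump in hearts labelled MCT1KO gave 0 called members in edgeR and 0 in DESeq2, with 0.00566% of all genes called. At an unadjusted p below 0.05 there were 3 members (Acta2, Cnn1 and Cspg4), against 12.1% of all genes. Acta2 was at 1.38 (SE 0.45, edgeR adjusted p = 0.220), and it was the one member of 10 whose groups did not overlap, against 8.6% of all genes. Xist was present in 0 of 3 hearts labelled MCT1KO without a pump and in 3 of 4 with saline. With Xist as a covariate 0 members and 69 of all genes were called, against 1 of all genes in the main fit. In that fit 7 members had an unadjusted p below 0.05. Without MCT1KO SALINE replicate 3 the values were 1.61 for Acta2 (adjusted p = 0.04998) and 0.51 for Cspg4 (adjusted p = 0.0334), Rgs5 was at −0.64 (adjusted p = 0.0320), and these 3 members were called. Leaving out that heart moved calls beyond the members too. Between genotypes with saline, 239 of all genes were then called, against 0 in the main fit. Mitochondrial genes held 17.3% of the counts of that heart and 9.03% to 10.04% in the other 3 saline hearts labelled MCT1KO. Cnn1 was at 2.14 and Cspg4 at 0.35. With atrial and adipocyte scores as covariates Acta2 shrank to 0.23 (adjusted p = 0.9997), and Cnn1 and Cspg4 turned, to −1.98 and −0.11. When MCT1KO SALINE replicate 4 was left out the values were 1.04 for Acta2, 0.12 for Cnn1 and 0.18 for Cspg4. Pdgfrb and Notch3, which rose in WT, were at −0.16 and −0.25 here. The test of that difference between genotypes gave −0.44 for Pdgfrb (SE 0.11, edgeR adjusted p = 0.127) and −0.69 for Notch3 (SE 0.17, edgeR adjusted p = 0.122). No member passed that test in edgeR (0.00566% of all genes did), and 3 had an unadjusted p below 0.05 (17.2% of all genes). DESeq2 called Pdgfrb and Notch3 with adjusted p of 0.0172 and 0.0228, where it called 371 of all genes. Without WT NO PUMP replicate 1, edgeR called both as well, with adjusted p of 0.0498 and 0.0463, and with the atrial and adipocyte covariates Notch3 was at −0.42 (adjusted p = 0.472).

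**Figure D3:**
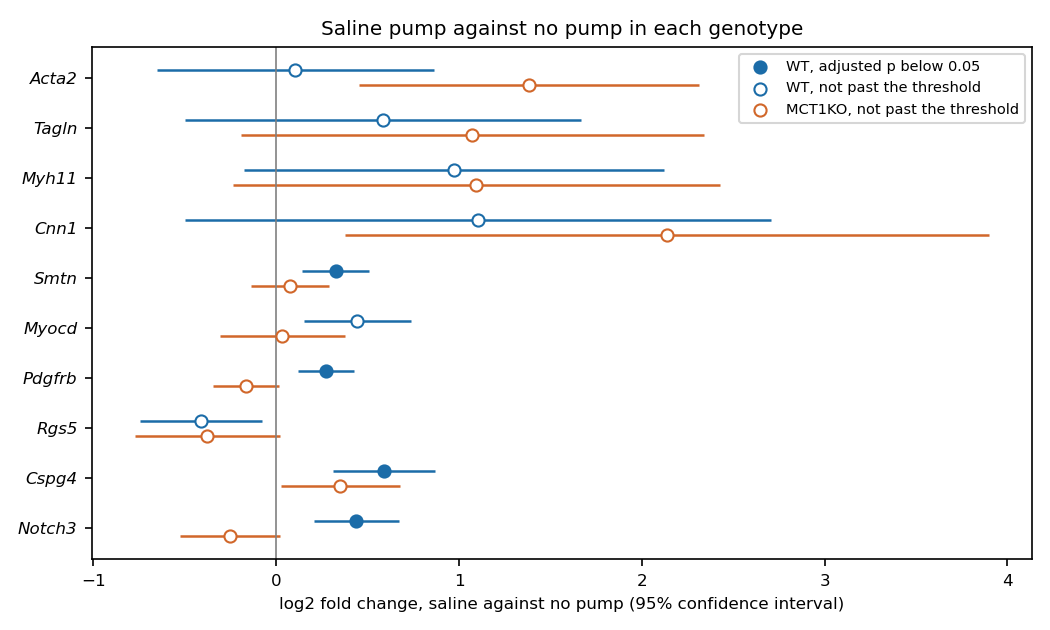
Log2 fold change for each member in saline hearts relative to hearts without a pump, with 95% confidence intervals, in WT (blue) and in hearts labelled MCT1KO (orange); filled points passed an edgeR adjusted p of 0.05. Smtn, Pdgfrb, Cspg4 and Notch3 are filled in WT, and no point is filled for hearts labelled MCT1KO.

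The genotypes were compared within each treatment to ask what goes with the MCT1KO label. Without a pump 0 members were called by edgeR (0% of all genes) and 0 by DESeq2, and 4 had an unadjusted p below 0.05 against 12.2% of all genes. These were Cspg4 at 0.49 (SE 0.16), Notch3 at 0.39 (SE 0.13), Smtn at 0.27 (SE 0.10) and Pdgfrb at 0.26 (SE 0.09), higher under the MCT1KO label, with edgeR adjusted p from 0.249 to 0.316. In these 4 all 3 hearts labelled MCT1KO lay above all 4 WT hearts, where 5.07% of all genes lay apart in that direction. The comparison shares its WT hearts without a pump with the WT saline comparison, in which the same 4 members were called, so a low value in those 4 hearts enters both. Of the hearts without a pump, 2 of 4 WT and 0 of 3 labelled MCT1KO held Xist. With GC and length offsets Pdgfrb was at 0.17 and Notch3 at 0.23, and 2 members had an unadjusted p below 0.05. Markers of other cell types moved too, with 0 called. All 5 leukocyte markers were negative, 4 of them at an unadjusted p below 0.05, with a median of −0.85 and sums of 119 to 183 CPM in the hearts labelled MCT1KO against 153 to 365 CPM in WT. All 5 fibroblast markers were negative as well, 1 of them at an unadjusted p below 0.05, with a median of −0.29. Summed endothelial markers were 739 to 807 CPM in the hearts labelled MCT1KO and 616 to 747 CPM in WT, with 1 of 5 at an unadjusted p below 0.05. The part of these cell types in the result was not tested.

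With saline, 0 members were called between genotypes by edgeR (0% of all genes) and 0 by DESeq2, and 6 had an unadjusted p below 0.05 against 17% of all genes. Cnn1 was at 1.84 (SE 0.66, edgeR adjusted p = 0.191), Myh11 at 1.28 (SE 0.52, edgeR adjusted p = 0.229), Tagln at 1.17 (SE 0.49, edgeR adjusted p = 0.243) and Acta2 at 0.85 (SE 0.36, edgeR adjusted p = 0.242). Without MCT1KO SALINE replicate 4 the first 3 turned, to −0.17 for Cnn1, −0.40 for Myh11 and −0.069 for Tagln, so their positive sign rested on that heart, and Acta2 was at 0.51. With atrial and adipocyte scores as covariates Cnn1, Myh11 and Tagln were at −1.35, −1.12 and −0.76 and Acta2 at 0.034. Notch3 was at −0.30 (SE 0.11, edgeR adjusted p = 0.195) and Pdgfrb at −0.18 (SE 0.07, edgeR adjusted p = 0.235), negative in each alternative tried, with Notch3 at −0.069 under the atrial and adipocyte covariates. For 0 of 10 members were the groups apart, against 2.88% of all genes. Xist was present in 3 of 4 saline hearts labelled MCT1KO and in 1 of 6 WT saline hearts. With Xist as a covariate 0 members were called, where 82 of all genes were, and 6 members had an unadjusted p below 0.05.

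**Figure D4:**
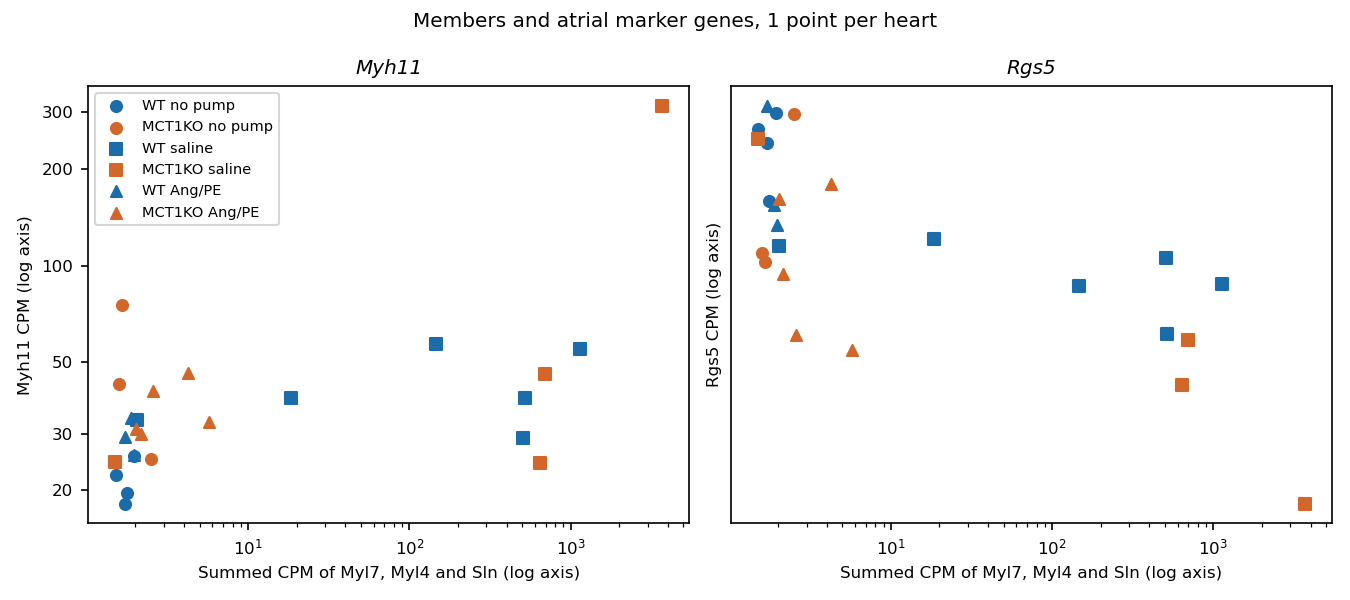
CPM of Myh11 and of Rgs5 against the summed CPM of the atrial markers Myl7, Myl4 and Sln, on log axes, with 1 point per heart and a symbol for each group. The point of MCT1KO SALINE replicate 4, with an atrial sum of 3679, is the top one for Myh11 (314) and the bottom one for Rgs5 (335).

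Under Ang/PE 0 members were called between genotypes by edgeR (0% of all genes) and 0 by DESeq2, and 2 had an unadjusted p below 0.05 against 6.92% of all genes. Acta2 was at 1.11 (SE 0.43) and Myocd at 0.41 (SE 0.16), both higher under the MCT1KO label with an edgeR adjusted p of 0.692. Myocd was the one member whose groups did not overlap, where 5.1% of all genes lay apart. Summed markers of activated fibroblasts, which also use Acta2, were 106 to 809 CPM in the Ang/PE hearts labelled MCT1KO and 120 to 214 CPM in the WT ones, and their part in the Acta2 values was not tested.

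Ang/PE against saline asks what the agonists add to the pump. In WT hearts 0 members were called by edgeR and 0 by DESeq2, with 0.017% of all genes called by edgeR. At an unadjusted p below 0.05 there were 2 members against 19.1% of all genes, Smtn at −0.22 (SE 0.10, edgeR adjusted p = 0.212) and Pdgfrb at −0.20 (SE 0.08, edgeR adjusted p = 0.192). Fold changes here fell with GC content, with a rank correlation of −0.39 over the 12724 genes. With GC and length offsets Smtn was at −0.073 and Pdgfrb at −0.087, and without WT ANG/PE replicate 3 Smtn was at −0.11. Neither gene had an unadjusted p below 0.05 with these offsets, with atrial and adipocyte covariates or without that heart. The groups did not overlap for Smtn and for Rgs5, which was at 0.31 (SE 0.18, edgeR adjusted p = 0.337), beside 13.6% of all genes. Xist was present in 3 of 3 WT Ang/PE hearts and in 1 of 6 WT saline hearts. With Xist as a covariate 1 member had an unadjusted p below 0.05 and 0 were called. In hearts labelled MCT1KO 0 members were called by edgeR and 0 by DESeq2, where 4.46% of all genes were called by edgeR. There 3 members had an unadjusted p below 0.05, against 20.4% of all genes, and the groups overlapped for all 10, against 5.42% of all genes that did not overlap. Myh11 was at −1.50 (SE 0.55, edgeR adjusted p = 0.126), Cnn1 at −1.81 (SE 0.71, edgeR adjusted p = 0.153) and Myocd at 0.34 (SE 0.15, edgeR adjusted p = 0.183). Without MCT1KO SALINE replicate 4 no member had an unadjusted p below 0.05, and Myh11 and Cnn1 turned, to 0.19 and 0.20, and with the atrial and adipocyte covariates to 1.11 and 2.23. Without MCT1KO SALINE replicate 3 they were called, at −1.83 (adjusted p = 0.0359) and −2.19 (adjusted p = 0.0433). In that fit 25% of all genes had an unadjusted p below 0.05, against 20.4% in the main fit. The test of the difference in Ang/PE response between genotypes called 0 members in edgeR (0% of all genes) and 0 in DESeq2. Of the 2 with an unadjusted p below 0.05 (13.5% of all genes), Myocd was at 0.48 (SE 0.21, edgeR adjusted p = 0.342) and Pdgfrb at 0.27 (SE 0.11, edgeR adjusted p = 0.320), or 0.16 with GC and length offsets.

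Ang/PE against no pump sets groups with few atrial counts side by side. In WT hearts 0 members were called by edgeR (0% of all genes) and 0 by DESeq2. Cspg4 was the one member with an unadjusted p below 0.05 (9.02% of all genes), at 0.47 (SE 0.16, edgeR adjusted p = 0.454), and it and Myh11 (0.46, SE 0.64, edgeR adjusted p = 0.878) did not overlap, against 10.7% of all genes. In hearts labelled MCT1KO 0 members were called by edgeR and 0 by DESeq2, with 0.503% of all genes called by edgeR. Acta2 was at 1.19 (SE 0.43, edgeR adjusted p = 0.218) and Myocd at 0.37 (SE 0.16, edgeR adjusted p = 0.301), the 2 members with an unadjusted p below 0.05 against 13.1% of all genes. Myocd alone did not overlap, against 8.45% of all genes. Myh11, Tagln and Cnn1 were at −0.40, 0.16 and 0.33, each within its SE of 0.60, 0.58 and 0.83. Xist was present in 4 of 5 Ang/PE hearts labelled MCT1KO and in 0 of 3 without a pump. With Xist as a covariate 0 members and 11 of all genes were called, against 89 of all genes in the main fit.

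Other genes of the same pathways were read from 5 lists, and all listed genes were tested. Of 14 further contractile smooth muscle genes, WT saline hearts had 1 called higher than without a pump and 0 lower. It was Ppp1r12b, a regulatory subunit of myosin phosphatase that heart muscle also makes, at 577 against 420.1 CPM (log2 fold change 0.46, edgeR adjusted p = 0.0315); with GC and length offsets it was at 0.25 (adjusted p = 0.254). Leaving out WT NO PUMP replicate 2, 3 or 4 or WT SALINE replicate 1, 2, 3 or 4 gave Ppp1r12b an adjusted p of 0.0521 to 0.141. The list's median was 0.22 beside 0.0020 over all genes. Of 10 partners of serum response factor and myocardin, 11 pericyte genes, 5 PDGF genes and 13 Notch pathway genes, 0 were called in this comparison by edgeR, with 2, 1, 2 and 2 at an unadjusted p below 0.05 where 24.3% of all genes were. Their medians were 0.13, −0.083, −0.14 and 0.074. Of the pericyte genes 2 were positive and 9 negative, unlike Cspg4, Pdgfrb and Notch3. Between genotypes without a pump 4 pericyte genes were positive and 7 negative, with a median of −0.16. In Ang/PE against saline hearts labelled MCT1KO, 1 contractile gene was called lower, Itga8, which encodes an integrin subunit of smooth muscle. Its saline levels were 15.1, 7.26, 7.19 and 106.7 CPM, and its Ang/PE levels ran from 5.30 to 7.78 CPM, with overlap. The log2 fold change of Itga8 was −2.42 (edgeR adjusted p = 0.0250), and without MCT1KO SALINE replicate 4, again the high heart, it was −0.64 (adjusted p = 0.360). Leaving out MCT1KO ANG/PE replicate 1, 3 or 5 gave adjusted p of 0.0513 to 0.0582. Under that comparison 10 of 14 contractile genes had an unadjusted p below 0.05, against 20.4% of all genes, with a median of −0.54 beside −0.01 over all genes. When MCT1KO SALINE replicate 4 was left out there were 5 of 14, against 13.4% of all genes, with a median of 0.07. With the atrial and adipocyte covariates there were 5 of 14, against 8.1% of all genes, with 13 of 14 positive and a median of 0.38. The negative median thus held in neither fit.

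In the same comparison Tead1, a TEA domain factor that works with serum response factor, rose by 0.49 (edgeR adjusted p = 0.0212). Its levels were 305, 302, 259 and 239.6 CPM with saline and 355 to 422 CPM with Ang/PE, with no overlap. Without MCT1KO SALINE replicate 4 the value was 0.43 (adjusted p = 0.115), and without MCT1KO ANG/PE replicate 4 it was 0.47 (adjusted p = 0.0504). Anpep, the pericyte aminopeptidase CD13, fell by 0.55 (edgeR adjusted p = 0.0447), from 22.9, 23.4, 23.9 and 32.6 CPM to 14.7 to 19.1 CPM, with no overlap. Its adjusted p was above 0.05 when any Ang/PE heart or saline replicate 2 or 4 of these hearts was left out, and its value then ran from −0.59 to −0.41. With atrial and adipocyte covariates the values were 0.66 for Itga8, 0.39 for Tead1 and −0.22 for Anpep, with adjusted p of 0.626, 0.599 and 0.810. The PDGF and Notch lists had 0 called genes in this comparison, and no gene of these 5 lists was called by edgeR in the other 9 comparisons. Among the marker lists here, 3 of 3 atrial and 4 of 4 tested adipocyte genes were lower, and 3 of 5 activated fibroblast genes (Postn, Cthrc1 and Meox1) were higher with Ang/PE.

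Tagln, Myh11 and Cnn1 moved together across the 25 hearts, when log2 CPM was taken as its deviation from the group mean. Tagln and Cnn1 had a Pearson r of 0.93 (Spearman 0.94), Myh11 and Cnn1 0.90 (0.80), and Tagln and Myh11 0.86 (0.79). Without MCT1KO SALINE replicate 4 these were 0.88, 0.82 and 0.75. Acta2 was less tied to them, with 0.62 to Tagln and 0.47 to Myh11, and Myocd had −0.18 to Myh11, or 0.01 without that heart. Cspg4, grouped here with the mural genes, had 0.64 to Acta2, 0.71 to Tagln, 0.68 to Myh11 and 0.69 to Cnn1, above every pair of mural genes. Among those the highest was Pdgfrb with Notch3 at 0.45 (Spearman 0.51). Rgs5 ran opposite to Cspg4, with −0.72 (Spearman −0.40), though leaving out the 2 hearts farthest out in Rgs5, MCT1KO SALINE replicates 3 and 4, moved this to −0.39. Over the 15 pairs of contractile genes and Myocd the median r was 0.33, and over the 24 pairs of these with mural genes it was −0.07. Over the 6 pairs of mural genes it was 0.17, from −0.72 to 0.45. All values of a heart share its library and its depth, so these are descriptions.

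The tested genes most like Myh11 over the 25 hearts, by r of the same deviations, were Lmod1 at 0.95 (0.87 without MCT1KO SALINE replicate 4), Ttc28 at 0.93 (0.85) and Dop1b at 0.92 (0.85). Lmod1 encodes leiomodin 1, an actin nucleator of smooth muscle, and had been listed among the contractile genes. Those most like Rgs5 were Gpihbp1 at 0.94 (0.93), Slc9a3r2 at 0.93 (0.91) and Arhgap27 at 0.92 (0.90). Gpihbp1 encodes the protein that carries lipoprotein lipase across the capillary endothelium.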

How the data were processed

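RNA of 25 hearts was sequenced; per the labels' protocols, total RNA was depleted of ribosomal RNA and made into stranded libraries. The authors deposited 1 table of raw read counts per Ensembl gene. STAR 2.7.9a, cutadapt 1.16, featureCounts 1.6.3, DESeq2 1.42.1 and the builds GRCm39 and mm39 are named in the submitters' processing notes; the annotation and the strand setting of the counting are not given in the sources used here. Columns were matched to samples by the library identifier in the titles, and 0 were left unmatched. Symbols were found for 51948 of 56941 genes. Exon length, GC content and the overlaps of members with other genes came from GENCODE M21 (GRCm38). The positions printed here are those of the RefSeq promoters.

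Genes were filtered by group with filterByExpr (17682 left), scaled by TMM and fitted in 1 model of 6 groups with edgeR 4.0.16 (glmQLFit, robust; R 4.3.3, limma 3.58.1), with 19 residual degrees of freedom and a common biological coefficient of variation of 0.196. There were 11 comparisons, two-sided, with Benjamini-Hochberg adjustment over all tested genes and a threshold of 0.05. CPM divides a gene's count by the TMM-scaled library size in units of 10⁶, log2 CPM had a prior count of 2, and SEs came from the F statistic. Precision is limited by 3 to 6 hearts per group and, for Cnn1, by low counts. The closest pair of replicate libraries differed by a chi-square of 3.33 per degree of freedom (43 pairs, median 23.0), so none was counted as a copy.

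The members and all gene lists were chosen with earlier results of these data known. All 10 members are named; of 5 pathway lists the called genes are named, at most 4 per list and comparison by smallest p; of marker lists (endothelial, fibroblast, activated fibroblast, ventricular, atrial, adipocyte, leukocyte, mesothelial and skeletal muscle) sums and counts; and, for Myh11 and Rgs5, the 3 tested genes with the highest correlation. Alternatives were RLE scaling, DESeq2 1.42.0, no low-count filter, a fit of the compared groups only, the replicate number as a block, Xist and marker scores as covariates, leaving out each heart, and, chosen after seeing the data, GC and length offsets fitted with mgcv 1.9.3 and the contractile list without single hearts or with the marker covariates.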

Additional observations from a re-analysis of the deposited data

Results flagged for a closer look

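Among 40 tests of members for a heart far from the rest of its group, 2 found one, and about 2 would be so by chance. In WT hearts without a pump, replicate 3 was the highest for Tagln, at 4.03 log2 CPM against 3.66 in the nearest heart. In Ang/PE hearts labelled MCT1KO, replicate 3 was the lowest for Cnn1, at −0.26 log2 CPM against 1.09 in the nearest heart.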

How the results depend on the processing

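Over 34 member results with an unadjusted p below 0.05, 612 alternative values were computed. Of these, 559 kept their direction and their side of the threshold, 30 lost the call, 11 gained one and 12 changed sign. Most of the 34 results were not called in the main fit, and only the 4 called ones could lose a call. Smtn lost its call in 10 alternatives and kept it in 8, and Pdgfrb lost it in 11 and kept it in 7. Cspg4 lost its call in 4 and kept it in 14, and Notch3 lost it in 5 and kept it in 13. For WT saline against no pump, where 4 members were called, 2 were called with no low-count filter and 2 with the Xist covariate. There were 0 with atrial and adipocyte covariates and 0 with GC and length offsets. Of all genes 1168 were called in the main fit, and 509, 549, 0 and 106 in these alternatives in that order. For the genotype difference in the response to saline pumping, DESeq2 called 2 members against 0, and 371 of all genes against 1. Sign changes under the atrial and adipocyte covariates were, for MCT1KO against WT with saline, −0.76 (Tagln), −1.12 (Myh11) and −1.35 (Cnn1). For Ang/PE against saline under the MCT1KO label they were 1.11 (Myh11) and 2.23 (Cnn1). For saline against no pump under that label they were −1.98 (Cnn1) and −0.11 (Cspg4). Itga8, which is not a member and is outside this tally, turned to 0.66 for Ang/PE against saline under the MCT1KO label. The causes were not tested. Leaving out each heart gave 0 to 6 called members for WT saline against no pump, 0 to 3 for the same under the MCT1KO label, 0 to 2 for Ang/PE against saline under that label and 0 to 2 for the difference in saline response. The other 7 comparisons stayed at 0 members. For MCT1KO against WT with saline the log2 fold change then ran from −0.069 to 1.49 for Tagln, from −0.40 to 1.61 for Myh11 and from −0.17 to 2.22 for Cnn1. For Ang/PE against saline under the MCT1KO label it ran from −1.83 to 0.19 for Myh11 and from −2.19 to 0.20 for Cnn1.

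The labels do not say that replicate numbers pair hearts of different groups. Deviations from group means of hearts with the same number (52 pairs) had a mean correlation of 0.0094, from −0.23 to 0.40. Of these pairs 9 were over 0.1, and 3 of 25 hearts were most like a same-numbered heart of another group. Whether some pairs were handled together was not tested. With the replicate number as a block 4 members were called for WT saline against no pump and 0 in the other 10 comparisons. Of all genes, 527 were called for WT saline against no pump with that block.

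Depth limits Cnn1 most. The groups also differ in depth, and the labels name no batch, so batch and group cannot be told apart.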

Other observations

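Markers of neighbouring cell types were also read in all 25 hearts. The summed CPM of 5 endothelial genes ran from 616 to 852 and that of 5 fibroblast genes from 544 to 1410, and 0 genes of either list were called by edgeR in any of the 11 comparisons, with at most 2 of 5 at an unadjusted p below 0.05. The 3 mesothelial genes summed to 6.18 to 28.7 CPM outside the saline hearts labelled MCT1KO and to 12 to 79.4 CPM in those. Upk3b, a marker of the mesothelium, was lower in Ang/PE than in saline hearts under the MCT1KO label (log2 fold change −4.71, edgeR adjusted p = 0.0423). Skeletal muscle genes summed to at most 2.23 CPM, and Myh4 had 0 counts in every heart of 5 of the 6 groups. Of 5 ventricular genes, Ryr2 was higher in WT saline hearts than without a pump (0.48, edgeR adjusted p = 0.0492), and Actn2 was higher in Ang/PE than in saline hearts labelled MCT1KO (0.68, edgeR adjusted p = 0.0169).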
